A study of Mus musculus with 4 samples.

Results

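In these mouse data 11 symbols begin with Slfn, among them a pseudogene, an antisense gene and a Schlafen-like gene. The 7 members of the Schlafen family described here, out of 26214 symbols counted, are Slfn1, Slfn2, Slfn3, Slfn4, Slfn5, Slfn8 and Slfn9. They were picked by symbol, with their behaviour in the comparison of extract and saline already known, so every value from that comparison is given as a description and supports nothing by itself. All 7 passed the low-count filter and were among the 16196 genes tested. The RNA came from the stromal vascular fraction (SVF, the cells left after floating adipocytes are removed from digested fat) of inguinal white adipose tissue. One group of 2 libraries came from mice treated with a medicinal herb extract (MHE), and the other of 2 from mice treated with phosphate-buffered saline (PBS). The labels give no strain, sex, age, diet, dose or duration. They call libraries of a group biological replicates and speak of triplicates, of which 2 per group were analysed here.

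Schlafen proteins take their name from the German for sleeping, after the first members were found to restrain the growth of developing T cells. Short members carry only the core domain shared by the family, intermediate members add a linker region, and long members add a helicase-like part. Slfn2 keeps resting T cells and monocytes quiescent, and several members are induced by interferon in lymphocytes and macrophages.

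Libraries held 27161882 to 33391075 counts. In this stromal fraction 10 adipocyte markers summed to 17857 to 43534 CPM (counts per 1000000 counts of the library after TMM scaling). Whether the fraction was stroma alone was not tested. The 11 progenitor markers summed to 1763 to 4890 CPM. The 12 T cell markers summed to 987 and 764 CPM with MHE and to 48.5 and 27.3 CPM with PBS, and all 12 rose. Of 12 B cell markers, 5 rose, and their sum was 2249 and 1784 CPM against 134 and 14.6 CPM, so that the saline libraries also differed from each other. The median log2 fold change of the 12 B cell markers was 4.81, and it was 8.29 with PBS replicate 1 left out and 3.98 with PBS replicate 2 left out. None of the 12 macrophage markers passed the edgeR test (0 also at an unadjusted p under 0.05, with DESeq2 and with limma-voom), with sums of 2470 and 3094 CPM against 4173 and 1911 CPM. With PBS replicate 2 left out 1 of them, Cd68, passed as lower (-1.64), and 2 had an unadjusted p under 0.05. Of 8 NK cell and 9 dendritic cell markers, 3 and 4 rose, and 1 adipocyte marker, Lep, and 1 of 8 smooth muscle markers, Lmod1, fell. Of these 8, 7 had an unadjusted p under 0.05 with edgeR. The median log2 fold change of the 8 was -2.62, with -1.15 without PBS replicate 1 and -2.49 without PBS replicate 2. DESeq2 called 7 of the 8 and 3 adipocyte markers as lower, where it called 7.64% of all tested genes as lower. In RNA from a whole fraction, fewer cells of a type and less RNA per cell cannot be told apart.

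Slfn1 and Slfn8 rose with the extract, while Slfn5, the family's most counted member in each library, overlapped between the groups. Slfn1 was 23.5 times and Slfn8 4.16 times as high with MHE. Of the 7 members, 2 passed the edgeR quasi-likelihood test as higher and 0 as lower, where 3.97% of all tested genes passed as higher and 0.963% as lower. At an unadjusted p under 0.05, 4 members passed, where 2709 of all 16196 tested genes passed as higher and 1917 as lower. In 6 of the 7, Slfn5 being the exception, both MHE libraries lay above both PBS libraries, as they did in 33.1% of tested genes. Since the members were chosen on this comparison, nothing is read from these counts. Without MHE replicate 1 or MHE replicate 2 no member passed, and of all 17050 and 17221 genes then tested 0 passed with edgeR (2352 and 2596 at an unadjusted p under 0.05).

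**Figure D1:**
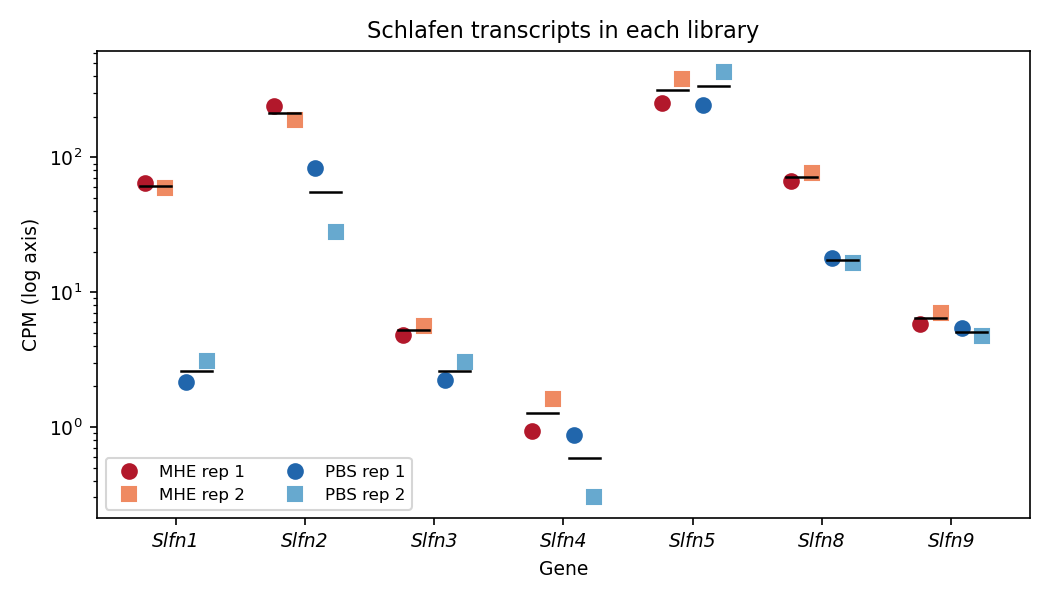
CPM on a log axis for the 7 Schlafen genes in each of 4 libraries, with red points for MHE, blue points for PBS and black lines for group means. Slfn1 and Slfn8 show wide gaps between groups, and the Slfn5 points overlap.

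The short members, Slfn1 and Slfn2, had coding sequences of 1011 and 1134 bases. Slfn1 (chromosome 11, 83116820 to 83122670 in mm10) is the founding member, named for stopping thymocyte growth. It stood at 64.5 and 59.1 CPM in MHE replicates 1 and 2, and at 2.17 and 3.08 CPM in PBS replicates 1 and 2. The saline values rest on 60 and 91 counts. Both MHE libraries were far above both PBS libraries, with a log2 fold change of 4.56 ± 0.27 (SE, n = 2 each), and leaving out any single library gave 4.31 to 4.84.

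Slfn2 (chromosome 11, 83065112 to 83070678), which shields transfer RNAs from cleavage in activated T cells, had 240 and 190 CPM with MHE and 83.0 and 27.9 CPM with PBS. The groups did not overlap, yet the saline libraries differed 2.97-fold (95% counting interval 2.75 to 3.22, exact binomial). Its log2 fold change was 1.96 ± 0.55 and it did not pass with all libraries. It passed as higher with DESeq2 (1.93), which called 10.6% of all tested genes as higher and 7.64% as lower. It also passed when PBS replicate 1 was left out (2.93) and when PBS replicate 2 was (1.38), and then 10.5% and 7.45% of all tested genes passed as higher. Intervals cover counting error only.

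The intermediate members, Slfn3 and Slfn4, had coding sequences of 1920 and 1806 bases, identical at 92.7% of aligned bases, and both were low. Slfn3 (83191330 to 83215154), studied in T cells and in gut epithelium, had 4.85 and 5.65 CPM with MHE and 2.24 and 3.01 CPM with PBS. Its groups lay apart by a small margin, with a log2 fold change of 1.00 ± 0.37 that did not pass. Slfn4 (83175172 to 83190216), a myeloid gene that interferon induces, had 31 and 46 counts with MHE and 24 and 9 counts with PBS. These are 0.933 and 1.61 CPM against 0.866 and 0.304 CPM, so that MHE replicate 1 and PBS replicate 1 were almost level. Its log2 fold change was 1.12 ± 0.76, with 2.03 without PBS replicate 1, 0.56 without PBS replicate 2 and 0.69 without MHE replicate 2. Of the 10 neutrophil markers 6 were tested and 1, Cxcr2, rose (17.2 and 13.2 CPM with MHE, 0.505 and 0.608 CPM with PBS). Ly6g was at 0 in every library, and the 10 markers summed to 58.7 and 53.9 CPM with MHE and 28.3 and 23.4 CPM with PBS. Of 8 monocyte markers, 2 rose and 0 fell, with a median log2 fold change of -0.21. They summed to 886 and 854 CPM with MHE and 540 and 594 CPM with PBS. The part of neutrophil and monocyte RNA in the Slfn4 values was not tested.

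The starts of these 4 genes share a run of letters, shown here because the genes of the short and intermediate groups all hold it and no long member does. The lines give the sense strand upstream of each RefSeq start in GRCm38.p6, with the shared ACTTCCTGG in capitals.
Slfn1, chr11:83116711-83116789, plus strand: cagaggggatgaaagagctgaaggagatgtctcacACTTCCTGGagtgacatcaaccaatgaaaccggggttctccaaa
Slfn2, chr11:83065022-83065100, plus strand: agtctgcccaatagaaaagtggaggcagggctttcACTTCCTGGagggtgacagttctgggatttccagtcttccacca
Slfn3, chr11:83191253-83191329, plus strand: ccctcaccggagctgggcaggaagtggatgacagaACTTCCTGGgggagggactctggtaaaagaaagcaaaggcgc
Slfn4, chr11:83175078-83175156, plus strand: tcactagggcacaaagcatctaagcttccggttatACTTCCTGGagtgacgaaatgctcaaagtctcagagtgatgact

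The run begins 74, 55, 42 and 73 bases before the starts of Slfn1, Slfn2, Slfn3 and Slfn4. For Slfn4 that start belongs to the window from 83174936 to 83175235 and is not the first base of the span given above. The run was picked after the sequences were read. On either strand it is in 0.843% of the 32851 windows of RefSeq promoters (250 bases before to 50 after a start) and in 0.999% of genes. It contains the GGAA core of ETS factors on the other strand. The 4 genes are similar copies on 1 chromosome, so their matches are not independent. Their log2 fold changes ran from 4.56 for Slfn1 to 1.00 for Slfn3. A match of letters is a description and not a binding site.

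Among the long members, Slfn8 and Slfn9 each had 2730 coding bases and were identical at 92.7% of them. Slfn8 rose and Slfn9 did not pass. Slfn8 (83002125 to 83020810), a long member with the helicase-like part, had 66.5 and 76.8 CPM with MHE and 18.1 and 16.4 CPM with PBS. The libraries of each group were close and the groups lay well apart, with a log2 fold change of 2.06 ± 0.20. Leaving out any single library gave 1.96 to 2.17. Slfn9 (82974316 to 82991830) had 5.84 and 7.06 CPM with MHE and 5.45 and 4.77 CPM with PBS, a narrow gap with a log2 fold change of 0.34 ± 0.31 that did not pass. The difference between these log2 fold changes was not tested.

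Similar copies can trade reads, so exact windows were compared. Of 100-base windows, 3.71% of the Slfn8 transcript and 3.90% of the Slfn9 transcript were also in a transcript of another gene, most often Slfn10-ps, and of 50-base windows 15.4% and 11.4%. With Slfn8 and Slfn9 counts summed the log2 fold change was 1.81 and passed, with 3.98% of genes called as higher in that fit. Slfn8 held most of that sum, with 2209 and 2189 counts with MHE and 501 and 485 with PBS. Slfn9 had 194 and 201 against 151 and 141, and Slfn10-ps was left out. The sum mostly follows Slfn8 and cannot show whether reads were traded. For Slfn3 and Slfn4, 21.8% and 11.1% of 50-base windows were shared, and their sum, mostly Slfn3, had 1.02 and did not pass. Slfn1 shared 0.606% of 50-base windows and none of 75 bases. Read length, and what was done with reads that hit several places, is not given in the sources used here.

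The interferon-stimulated response element was searched on both strands as GAAA, any pair of bases, GAAA. It was in 3.44% of all windows (3.99% of genes) and in those of 3 members, all long ones: Slfn5, Slfn8 and Slfn9. The pair Slfn8 and Slfn9 is shown because the same element lies at nearly the same place in a gene that rose and in one that did not pass. Capitals mark the match, here on the other strand.
Slfn8, chr11:83020814-83020893, minus strand: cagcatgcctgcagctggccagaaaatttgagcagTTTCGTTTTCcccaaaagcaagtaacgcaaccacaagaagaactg
Slfn9, chr11:82991831-82991910, minus strand: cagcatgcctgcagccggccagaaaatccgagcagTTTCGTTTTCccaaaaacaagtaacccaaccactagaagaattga

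The match begins 48 bases before the start of Slfn8 and 45 before that of Slfn9. Slfn8 has another RefSeq start, and the same match lies 136 bases before that one, so it is not a further element. Slfn8 and Slfn9 are similar copies, so their matches are not independent. In Slfn5 the match begins 155 bases before a RefSeq start that is not the first base of the span given below. That window runs from 82951852 to 82952151, inside the span, so the match lies within the gene as listed. Of the other motifs, the gamma-activated site TTCNNNGAA and the PU.1 site GAGGAAGT were in no member's window, against 8.30% and 3.20% of all windows. The AP-1 site TGANTCA and TATAAA were in that of Slfn4 (7.81% and 13.6% of all windows), and an NF-kB motif in that of Slfn9 (20.7%). No match says only that these letters are not in this window.

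Slfn5 (82951349 to 82964850), a long member with 2652 coding bases, had 253 and 381 CPM with MHE and 246 and 431 CPM with PBS. The groups overlapped, and in each group replicate 2 was the higher library, 1.51-fold with MHE and 1.75-fold with PBS. The log2 fold change was -0.09 ± 0.40, and its sign turned (0.091) when libraries were scaled by totals alone, a scaling that moved the median of all genes by 0.16. It was also positive with MHE replicate 1 left out (0.18) or with PBS replicate 2 left out (0.37), and was -0.46 with PBS replicate 1 left out. The antisense gene Slfn5os shares 559 exonic bases with it and had 4.94 and 7.44 CPM with MHE and 4.76 and 9.53 CPM with PBS, in the same order over libraries. Since the submitters' notes do not speak of strand, reads in those bases cannot be assigned to either gene.

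The other Schlafen symbols were low. The pseudogene Slfn10-ps had 3.85 and 4.81 CPM with MHE and 4.40 and 2.40 CPM with PBS, with overlapping groups. Slfn14, a ribosome-associated nuclease of platelets and red cell precursors, had 1 count in MHE replicate 1 and 0 in the other libraries. The Schlafen-like Slfnl1 on chromosome 4 had 4, 2, 2 and 0 counts, and neither was tested. Slfn10-ps and Slfn5os did not pass with edgeR, at an unadjusted p under 0.05, with DESeq2 or with limma-voom.

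The make-up of the family's counts differed between the groups. The 7 genes together took 0.0680% and 0.0757% of counts in the MHE libraries and 0.0358% and 0.0431% in the PBS libraries. Slfn5 made up 39.8% and 52.8% of them with MHE and 68.8% and 88.6% with PBS. Slfn1 made up 10.1% and 8.19% against 0.605% and 0.633%, and Slfn8 10.5% and 10.7% against 5.05% and 3.37%. Slfn2 had 37.8% and 26.4% with MHE and 23.2% and 5.74% with PBS, so its gap between groups was narrower than the gap between the saline libraries. Without Slfn5, the other members summed to 383 and 341 CPM with MHE and to 112 and 55.5 CPM with PBS.

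**Figure D2:**
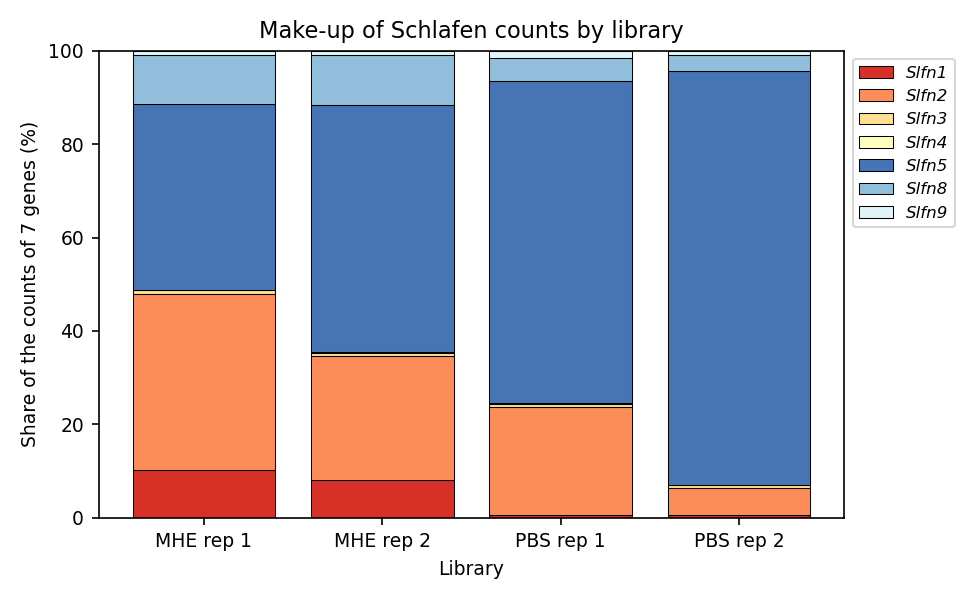
Stacked bars of each Schlafen gene's share, in percent, of the counts of all 7 genes in each library. Slfn5 takes 68.8% and 88.6% in the PBS libraries and 39.8% and 52.8% in the MHE libraries, where Slfn1, Slfn2 and Slfn8 take more.

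Levels of different genes were compared as CPM per kilobase of annotated exon. With MHE, Slfn2 led at 144 and 114, then Slfn5 at 40.0 and 60.2, Slfn1 at 34.6 and 31.7, and Slfn8 at 16.3 and 18.8. Slfn3 (1.42 and 1.66), Slfn9 (0.979 and 1.18) and Slfn4 (0.235 and 0.407) followed. This order was the same in both MHE libraries. With PBS, Slfn5 and Slfn2 changed places between libraries: Slfn2 had 49.9 and 16.8, and Slfn5 38.9 and 68.1. Slfn8 came next at 4.42 and 4.01, then Slfn1 at 1.16 and 1.65. Slfn9 (0.914 and 0.799) and Slfn3 (0.656 and 0.882) overlapped there, and Slfn4 was lowest in each library. Slfn1 was thus near Slfn8 and Slfn5 per length with MHE and nearer the low members with PBS.

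The saline libraries held different amounts of leukocyte RNA, and the members differed in whether they moved with it. Ptprc, the gene of the pan-leukocyte protein CD45, had 95.1 CPM in PBS replicate 1 and 34.8 CPM in PBS replicate 2, a ratio of 2.73 (95% counting interval 2.54 to 2.94). Slfn2 and Slfn4 had ratios of 2.97 and 2.85 (1.28 to 6.96 for Slfn4). Slfn8 and Slfn9 had 1.10 and 1.14, with counting intervals that include 1. Slfn1 was instead 1.42-fold higher in PBS replicate 2 (1.01 to 2.00). Slfn5 was also higher there, as were blood endothelial markers (955 and 1730 CPM in PBS replicates 1 and 2) and adipocyte markers (28739 and 43534 CPM). Between MHE replicates 1 and 2, where Slfn5 was again higher in replicate 2, endothelial markers had 906 and 912 CPM and adipocyte markers 25036 and 17857 CPM. Their part in the Slfn5 values was not tested. With 1 library on each side these ratios carry no replicate error.

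Each member was also set against markers of leukocytes, which shifts all members alike and leaves the gaps between them as they were. Ptprc itself had 514 and 526 CPM with MHE, a log2 fold change of 3.0 ± 0.55 (edgeR adjusted p = 0.0508). It was 3.89 with PBS replicate 1 left out and 2.46 with PBS replicate 2 left out. Ptprc passed with DESeq2, with limma-voom and with either other low-count filter. It did not pass with either other scaling or with the replicate number as a block. Per CPM of Ptprc, Slfn1 had 0.125 and 0.112 with MHE and 0.0228 and 0.0884 with PBS. Per summed CPM of 12 T cell markers, Slfn1 had 0.0653 and 0.0774 with MHE and 0.0446 and 0.113 with PBS, so the groups overlapped. Slfn2 per T cell marker CPM had 0.243 and 0.249 with MHE, nearly equal, and 1.71 and 1.02 with PBS. For Slfn8 these ratios were 0.0674 and 0.101 against 0.373 and 0.600, and for Slfn5 0.256 and 0.499 against 5.08 and 15.8. Which members lie higher or lower on such a scale follows from how far the reference itself moved. Per summed CPM of 12 macrophage markers, Slfn1, Slfn2, Slfn3, Slfn4 and Slfn8 were higher in both MHE libraries than in both PBS libraries, with mean log2 differences of 4.61, 2.18, 1.04, 1.29 and 2.08. Slfn5 and Slfn9 overlapped on that scale. The part of T cell and other leukocyte RNA in the members' values was not tested.

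**Figure D3:**
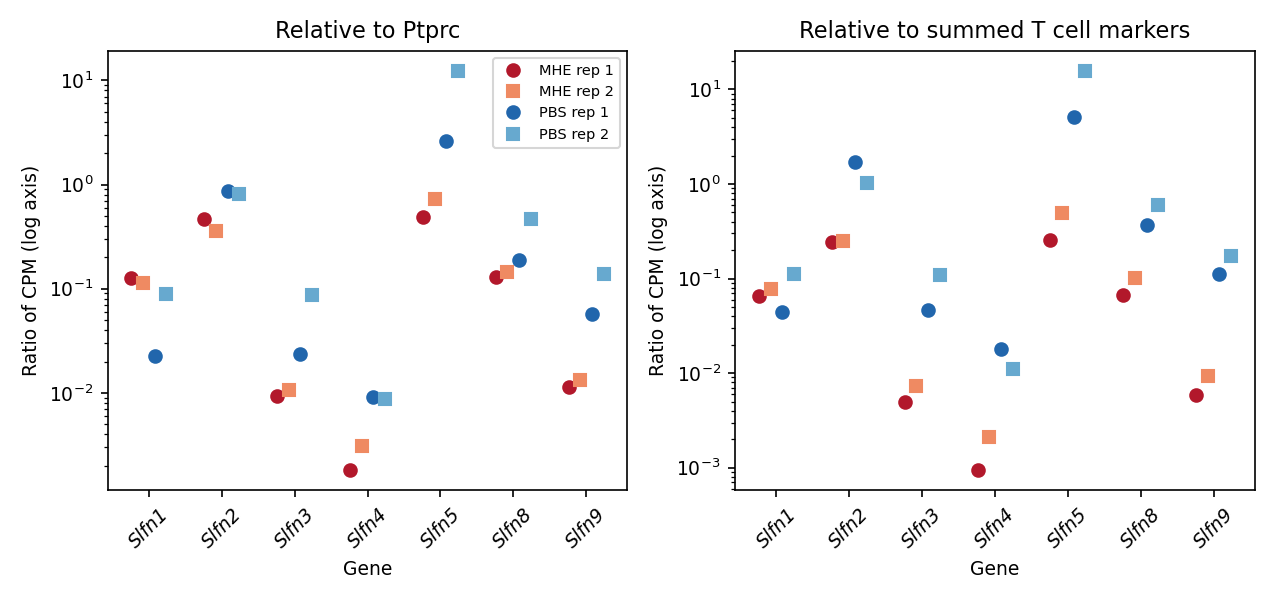
Ratio, on a log axis, of each Schlafen gene's CPM to that of Ptprc (left) and to the sum of 12 T cell markers (right) in each library, red for MHE and blue for PBS. For Slfn1 on the right the groups overlap, and for Slfn5 the MHE points (0.256 and 0.499) lie far below the PBS points (5.08 and 15.8).

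The 10 Schlafen symbols of chromosome 11 span 344 kb, from 82942341 to 83286726. Of 25 other genes inside the cluster or within 300000 bases of it, 23 were tested. Their median log2 fold change was 0.04 against -0.02 over all tested genes, and 2 of them rose (8.70%, against 3.97% of all tested genes). These were the T cell chemokine gene Ccl5 (115 and 105 CPM against 10.9 and 3.92 CPM, log2 fold change 3.89 ± 0.54) and Heatr9 (45 and 53 counts against 2 and 1). Without PBS replicate 1, Ccl5 had 4.79. Inside the cluster, Slfn9 with a log2 fold change of 0.34 lies beside Slfn8 with 2.06, and Slfn10-ps with 0.35 lies between Slfn8 and Slfn2. These differences between neighbours were not tested.

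**Figure D4:**
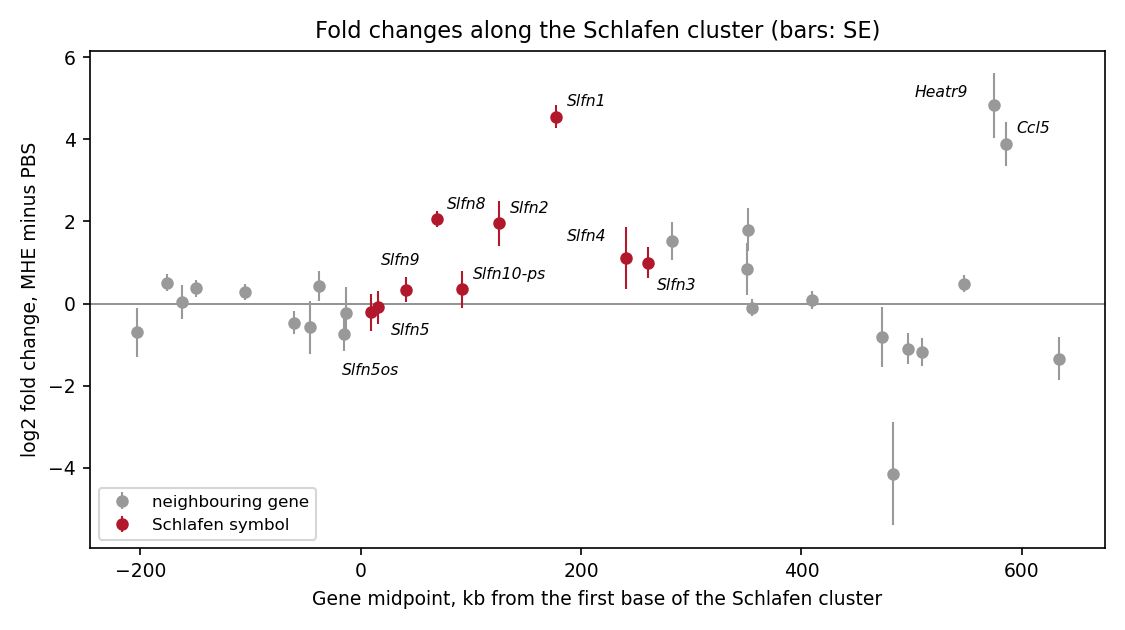
Log2 fold change, MHE minus PBS, with SE bars, for tested genes in and around the Schlafen cluster, against the distance of each gene's midpoint in kb from the cluster's first base, with Schlafen symbols in red. Slfn1 at 4.56 stands above the others of the cluster, and Ccl5 and Heatr9 lie outside it.

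Interferon genes were partly higher. Of 16 genes for interferon receptors and signalling, 3 rose (18.8%, against 3.97% of all tested genes), with a median log2 fold change of 0.87 against -0.02. They included the transcription factor genes Irf1 (1.35 ± 0.22) and Irf8 (2.51 ± 0.40), the latter also a gene of B cells and dendritic cells. Of 22 interferon-stimulated genes, 4 rose (18.2%, median 0.61): Oas3, an RNA sensor (2.55 ± 0.28), Zbp1, a nucleic acid sensor (1.99 ± 0.23), Trim30a (1.61 ± 0.19) and the antiviral GTPase gene Mx1 (2.41 ± 0.36). With PBS replicate 1 left out, 5 of the 16 passed. DESeq2 called 9 of the 16 as higher, and 5 of the 22 as higher with 1 lower, where it called 10.6% of all tested genes as higher and 7.64% as lower.

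Of 18 genes of lymphocyte quiescence, the state that Slfn2 maintains, 5 rose (27.8%, against 3.97% of all tested genes, median 1.00). Bach2, a repressor that keeps lymphocytes resting, had 73.4 and 84.7 CPM against 6.82 and 7.10 CPM (log2 fold change 3.51 ± 0.21), with both groups tight. Foxp1 (1.35 ± 0.20) rose as well, as did the lymph node homing receptor gene Ccr7 (5.21 ± 0.91) and Runx1, named outside the rule for named genes. With PBS replicate 1 left out Ccr7 had 7.08, with PBS replicate 2 left out it had 4.43, and it lost its call without the low-count filter (adjusted p = 0.0787, edgeR). DESeq2 called 8 of the 18 as higher, against 10.6% of all tested genes. Of 14 genes of transfer RNA cleavage and the stress response it triggers, 0 passed with edgeR (2 at an unadjusted p under 0.05), DESeq2 called 1, Ppp1r15b, and limma-voom 0. Ang, the nuclease that Slfn2 counters, had 16.3 and 20.9 CPM with MHE and 32.6 and 23.4 CPM with PBS, a log2 fold change of -0.59 ± 0.27 that did not pass. T cell marker sums were also higher with MHE, and their part in the values of these lists was not tested. Without MHE replicate 1 or MHE replicate 2 no gene of any list passed.

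Genes whose profile over the 4 libraries was most like each member's were found by the distance between log2 CPM values centred on their mean, among 12902 genes. Nearest to Slfn1 were Dnase1l3, a nuclease gene, and the chemokine receptor gene Cxcr2, at 0.23 and 0.26. Nearest to Slfn2 was Ptpn7, a phosphatase gene of blood cells (0.18), and nearest to Slfn8 were Psd (0.09) and Mndal, an interferon-inducible DNA-binding protein gene (0.12). For Slfn5 they were Nr4a2 and Vps13d (0.09 and 0.10), for Slfn9 Nanp (0.02), for Slfn3 Zfp729a (0.05) and for Slfn4 the replication checkpoint gene Clspn (0.25). Among the 21 pairs of members, the profiles of Slfn3 and Slfn9 were closest (0.79) and those of Slfn1 and Slfn5 farthest apart (4.65). With 4 libraries many genes share such a profile, and the distances are descriptions.

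**Figure D5:**
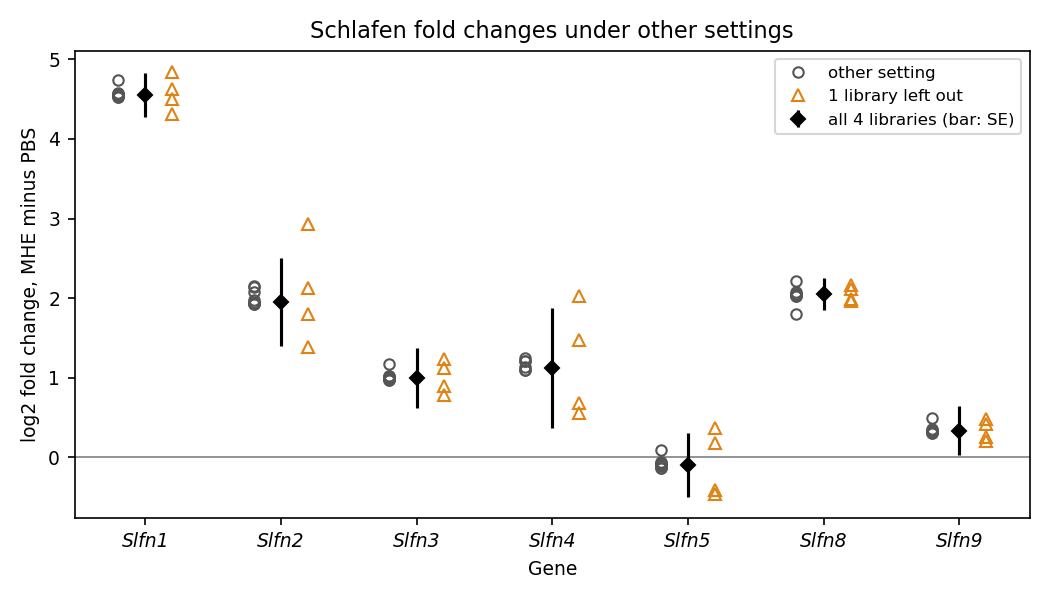
Log2 fold change, MHE minus PBS, of each Schlafen gene with all 4 libraries (black, SE bars), under other settings (grey circles) and with 1 library left out (orange triangles). Slfn1 stays between 4.31 and 4.84, Slfn2 ranges from 1.38 to 2.93, and Slfn5 falls on both sides of 0.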

How the data were processed

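For each of the 4 libraries the authors deposited raw, whole-number counts by gene symbol. Per the submitters' processing notes TopHat2, edgeR, limma and build mm10 were used. The counting program, with its annotation and strand setting, is not given in the sources used here. Counts were tested with edgeR 4.0.16 in R 4.3.3: filterByExpr (minimum count 10, total 15), TMM factors, robust quasi-likelihood fit, Benjamini-Hochberg adjustment over 16196 genes, threshold 0.05. The SE was taken as the absolute log2 fold change over √F. The procedure was also run on counts simulated from its own fitted dispersions, which cannot show how well calls from 2 libraries per group hold. Alternatives were DESeq2 1.42.0, limma-voom 3.58.1, other scaling factors and low-count filters, the replicate number as a block, summed similar members and each library left out.

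The members, gene lists and settings were chosen with earlier results of these data known. Named genes are all members, up to 4 of each list with the smallest p, and the 2 nearest profiles per member (mean log2 CPM of at least 1), not all of them printed, and some list genes are not reported here. Of the symbols, 26167 matched the RefSeq table of GRCm38.p6, the assembly behind mm10, and promoters are RefSeq's. Exon and coding lengths (without the stop codon) and transcripts are from GENCODE M21, and coding sequences were aligned globally with Biopython 1.88. Protein identity, fixed as a description, was not analysed here. Labels call the libraries biological replicates. An exact permutation of 2 against 2 cannot give a two-sided p under 0.333.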

Additional observations from a re-analysis of the deposited data

How the results depend on the processing

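Over up to 12 alternatives, Slfn1 and Slfn8 had log2 fold changes of 4.31 to 4.84 and 1.81 to 2.21 and kept their calls except without MHE replicate 1 or MHE replicate 2. Slfn2 had 1.38 to 2.93, Slfn3 0.79 to 1.24, Slfn4 0.56 to 2.03 and Slfn9 0.21 to 0.49, with no change of sign. Slfn5 turned to 0.091 with library totals alone, to 0.18 when MHE replicate 1 was left out and to 0.37 when PBS replicate 2 was, and leaving out each library gave -0.46 to 0.37. Leaving out each library in turn, 0 to 3 members and 0 to 2750 of all tested genes passed, against 2 and 799 with all libraries. DESeq2 called 3 members and 2951 genes, 58.1% of them higher against 80.5% with edgeR. Slfn4 did not pass the stricter low-count filter. The cause of these differences was not tested. With the replicate number as a block, 2 members and 764 genes passed, and Mx1, Ccr7 and Heatr9 had adjusted p = 0.0502, 0.0551 and 0.0661 (edgeR). Same-numbered libraries deviated together at r = 0.12, and with 2 pairs the numbers alone do not pair the samples. Without length scaling, 1 of the 7 members kept its place in the order of mean levels, as did 1 in each MHE library, 2 in PBS replicate 1 and 4 in PBS replicate 2. Slfn4, with 9 to 46 counts a library, is limited by depth.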
